A study of Bos taurus with 6 samples.

Results

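Histone acetyltransferases transfer an acetyl group from acetyl-CoA to lysines of the histone tails, and histone deacetylases (HDACs), the enzymes that butyrate inhibits, remove it. The enzymes fall into families by sequence, and most work inside large complexes whose other subunits choose the target. CREBBP (CBP) and EP300 (p300) acetylate histones at enhancers and promoters, KAT2A (GCN5) and KAT2B (PCAF) belong to the GNAT family, and KAT5, KAT6A, KAT6B, KAT7 and KAT8 belong to the MYST family. HAT1 differs from the others in acting mainly on newly made histone H4 before it is deposited on DNA.

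The genes described here are those whose name in the expression tables is 1 of 10 listed acetyltransferase symbols. Of these, 9 were measured, among 32183 genes listed for each culture, and EP300 was not analysed here. All 9 passed the filter of a mean FPKM of at least 0.1 over the cultures, which left 15813 genes to be tested. FPKM is the number of fragments per kilobase of transcript, scaled to the number of mapped fragments. Levels can be compared between genes, and between cultures only with the limit that FPKM does not sum to the same total in each culture.

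RNA was sequenced from 6 cultures of rumen epithelial primary cells (REPC), cells grown from the rumen lining of a Holstein bull calf aged 2 weeks that had received milk replacer only. In 3 cultures 5 mM butyrate was in the medium for 24 h, and 3 cultures were controls. All cultures came from this single calf, so each p-value measures the spread between cultures and not between animals. In such bulk samples, fewer cells of a type and less RNA per cell cannot be told apart.

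The number of genes with an FPKM above 0 was 16051 to 16193 in the control cultures and 17306 to 17510 in the butyrate cultures, and the FPKM summed to 678035 to 681912 and 619401 to 629037. The read depth of the cultures is unknown here, since FPKM is already scaled to it. The epithelial label was checked against KRT5, KRT14, KRT8, KRT18, CDH1 and EPCAM, whose summed FPKM was 1923 to 2033 in control and 3077 to 3129 after butyrate. KRT8 made up most of this sum, and KRT8, KRT14, KRT18 and EPCAM rose, whereas KRT5 fell from a mean FPKM of 401 to 356 and CDH1, at 49.8 and 48.9, did not pass. EPCAM was low in control, with a mean FPKM of 0.540. Of the fibroblast markers, VIM, COL1A1, COL1A2 and COL3A1 were abundant, DCN had a mean FPKM of 6.90 in control, and PDGFRB was below the filter. The sum of these 6 genes was 4332 to 4491 in control and 6279 to 6626 after butyrate, and the 5 that could be tested all rose. The leukocyte markers PTPRC, CD3E, CD68 and CD14 summed to 5.12 to 7.15 in control and 7.23 to 9.38 after butyrate. PTPRC was at 0 in all cultures, CD68 rose from a mean FPKM of 0.595 to 1.21, and CD14, at 5.57 and 6.80, did not pass. The endothelial markers PECAM1, CDH5 and VWF summed to 1.95 to 2.07 in control and 6.47 to 8.41 after butyrate, with CDH5 at 0 in all cultures and the other two higher. Of the muscle markers, which summed to 424 to 435 and 368 to 411, DES rose while MYH11 and ACTG2 fell. ACTG2 made up most of the muscle sum. The falls of KRT5 and ACTG2 were small, with log2 fold changes of -0.17 and -0.15. Their values after rescaling to equal FPKM sums are not given here. DES and MYH11 were low, with mean FPKM of 0.367 and 0.662 in control and 1.60 and 0.0762 after butyrate. The part of these shifts in the values that follow was not tested.

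After butyrate, 7 of the 9 acetyltransferases fell and none rose (limma, Benjamini-Hochberg adjusted p below 0.05 over all tested genes). Among all 15813 tested genes, 25.9% fell and 32.5% rose by the same rule. HAT1 had the largest change, and KAT5, CREBBP, KAT2A, KAT7, KAT6B and KAT8 followed in that order of log2 fold change. KAT2B and KAT6A did not pass. In all 7 the butyrate values lay below all control values, as in 28.9% of the tested genes, and in the other two they lay above. At an unadjusted p below 0.05 the counts were the same, 7 lower and 0 higher, but the share of all tested genes at that threshold was not computed. The median log2 fold change of the 9 genes was -0.75, while that of all tested genes was 0.10 with quartiles of -0.41 and 0.77. None of the 9 passed the thresholds that define a differentially expressed gene (DEG) in the study's methods, a Bonferroni-corrected p below 0.05 together with a log2 fold change beyond 2. These thresholds were applied here to the limma test, whereas the study used Cufflinks, so its own list of DEGs can differ. By limma 627 of the tested genes, or 3.97%, passed them, 1.51% with lower and 2.46% with higher values. This is fewer genes than the study reports as DEGs.

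**Figure D1:**
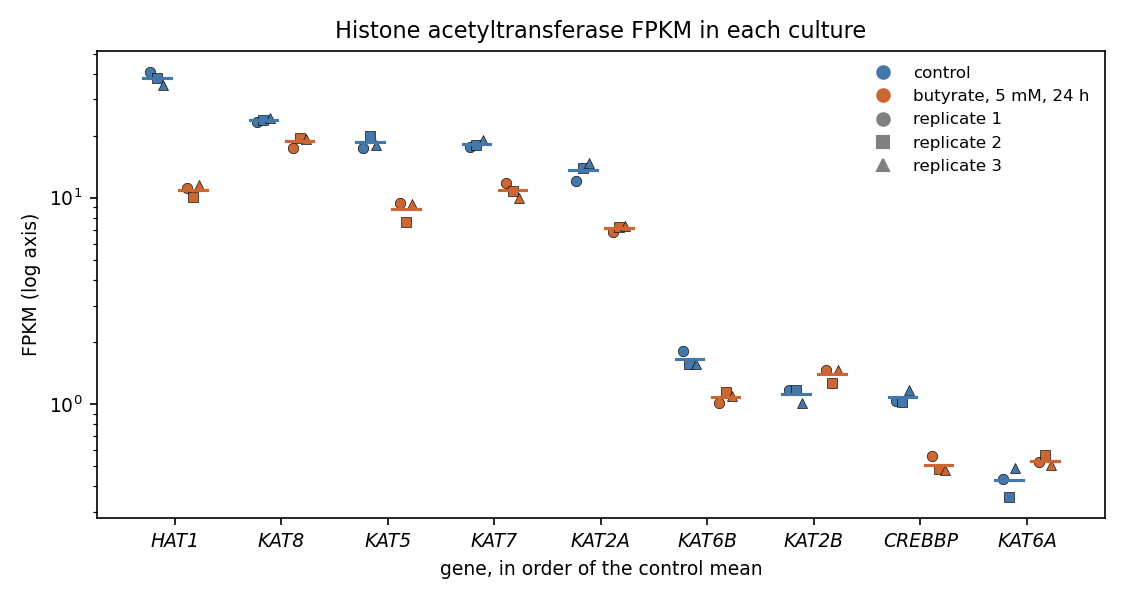
FPKM of the 9 acetyltransferases on a log axis, with 1 point per culture, circles, squares and triangles for replicates 1 to 3, and a bar at the mean of each group. HAT1 is the highest gene in each control culture and overlaps KAT7 after butyrate, and in 7 genes all butyrate points lie below all control points.

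HAT1 lies on chromosome 2 from 24606871 to 24646823 in the UMD3.1 coordinates of the tables. The control cultures had FPKM of 40.7, 38.0 and 35.0 and the butyrate cultures 11.2, 10.1 and 11.5, given here and below in the order of their replicate numbers 1 to 3. The highest butyrate culture was therefore well below the lowest control culture, and the deposited confidence bounds of the single cultures did not overlap between the groups either. The mean went from 37.9 ± 2.88 (SD, n = 3) to 10.9 ± 0.762 (SD, n = 3), which is 71.2% lower. Its log2 fold change of -1.78 had a standard error of 0.086 (limma, adjusted p = 6.5e-07), and 3.21% of the tested genes had a value as low. HAT1 alone among the acetyltransferases passed the Bonferroni correction (limma, Bonferroni-adjusted p = 0.00029), which 6.97% of all tested genes passed with lower and 5.79% with higher values, and it missed the DEG thresholds by its fold change. Without the mean-variance trend of the test its Bonferroni-adjusted p from limma was 0.062.

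KAT5 (TIP60), the MYST enzyme of the NuA4 complex with roles in transcription and in the response to DNA breaks, lies on chromosome 29 from 44544625 to 44552256. Its FPKM was 17.5, 20.0 and 18.1 in the control cultures and 9.46, 7.62 and 9.36 in the butyrate cultures. The groups were apart by a wide gap, and the mean of 8.81 ± 1.03 (SD, n = 3) after butyrate was 52.5% below the control mean of 18.5 ± 1.30 (SD, n = 3). This gave a log2 fold change of -1.07 (standard error 0.109) (limma, adjusted p = 4.6e-05).

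CREBBP, the coactivator paralogous to EP300, lies on chromosome 25 from 3050214 to 3169286. It was among the lowest of the 9 genes, with FPKM of 1.04, 1.02 and 1.17 in control and 0.559, 0.487 and 0.480 after butyrate. The groups did not overlap, although the confidence bounds of single cultures did. Its log2 fold change of -0.95 had a standard error of 0.238 (limma, adjusted p = 0.0083), on a log2(FPKM + 0.1) scale that understates changes at such levels. Its size depended on the processing, at -1.58 with quantile normalization and -0.46 with a pseudocount of 1, both still passing. By the ratio of means, CREBBP was 52.8% lower, a share close to that of KAT5. The bounds imply only 27 to 66 fragments per culture for this gene, which is an approximation, against 153 to 653 for HAT1.

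KAT2A, the GNAT enzyme of the SAGA and ATAC coactivator complexes, lies on chromosome 19 from 42888552 to 42895460. Its FPKM was 12.1, 13.9 and 14.8 in control and 6.86, 7.21 and 7.26 after butyrate, so that neither the values nor their confidence bounds overlapped. KAT2A changed by -0.92 on the log2 scale (standard error 0.103) (limma, adjusted p = 8.1e-05).

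KAT2B, which can take the place of KAT2A in the same complexes, lies on chromosome 1 from 44857660 to 44930800. Its FPKM was 1.17, 1.17 and 1.01 in control and 1.46, 1.27 and 1.47 after butyrate. All butyrate values were above all control values, as in 36.1% of the tested genes, but the log2 fold change of 0.30, with a 95% interval from -0.16 to 0.77, did not pass (limma, adjusted p = 0.23). The sign of this value depended on the scaling, and it was -0.17 after quantile normalization.

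KAT7 (HBO1), a MYST enzyme known for its part in licensing replication origins, lies on the same chromosome as KAT2A, from 37444867 to 37479708. Its FPKM was 17.6, 18.0 and 19.1 in control and 11.8, 10.8 and 9.98 after butyrate. The groups and their confidence bounds were apart, and KAT7 changed by -0.75 on the log2 scale (standard error 0.089) (limma, adjusted p = 0.00012).

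KAT8 (MOF), the MYST enzyme of the MSL and NSL complexes that acetylates histone H4, lies on chromosome 25 from 27473789 to 27485036. Its FPKM was 23.2, 23.8 and 24.3 in control and 17.5, 19.5 and 19.3 after butyrate. It had the smallest of the 7 falls, with a mean 20.8% lower and a log2 fold change of -0.34 with a standard error of 0.072 (limma, adjusted p = 0.0036). After rescaling to equal sums it was -0.21 (limma, adjusted p = 0.027). The 3 control cultures lay close together (SD 0.552) and the butyrate cultures less so (SD 1.09). The groups did not overlap, although the confidence bounds of single cultures did. The KAT8 locus shares 45 bases with PRSS8, whose mean FPKM was 2.51 in control and 2.15 after butyrate, and reads from these bases could not be assigned here.

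KAT6A (MOZ) and KAT6B (MORF) are paralogous MYST enzymes that share the scaffold protein BRPF1. KAT6B lies on chromosome 28 from 30806675 to 30988566, with FPKM of 1.80, 1.57 and 1.57 in control and 1.01, 1.15 and 1.09 after butyrate. The groups did not overlap, although the confidence bounds of single cultures did. KAT6B had a log2 fold change of -0.56, with a standard error of 0.195, which passed narrowly (limma, adjusted p = 0.035). The call was lost when the FPKM were rescaled to the same sum in each culture (limma, adjusted p = 0.078), and also without any single control culture or without butyrate replicate 1 or 3, where the adjusted p from limma was 0.056 to 0.084. The value was -1.02 with quantile normalization and -0.35 with a pseudocount of 1.

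KAT6A lies on chromosome 27 from 36530208 to 36636565. It was the lowest of the 9 genes in control, with FPKM of 0.435, 0.356 and 0.491, and 0.522, 0.569 and 0.506 after butyrate. The butyrate values lay just above the control values, and the log2 fold change of 0.27, with a 95% interval from -0.37 to 0.91, did not pass (limma, adjusted p = 0.44). It was -0.46 after quantile normalization. The bounds imply 29 to 46 fragments per culture for this gene.

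**Figure D2:**
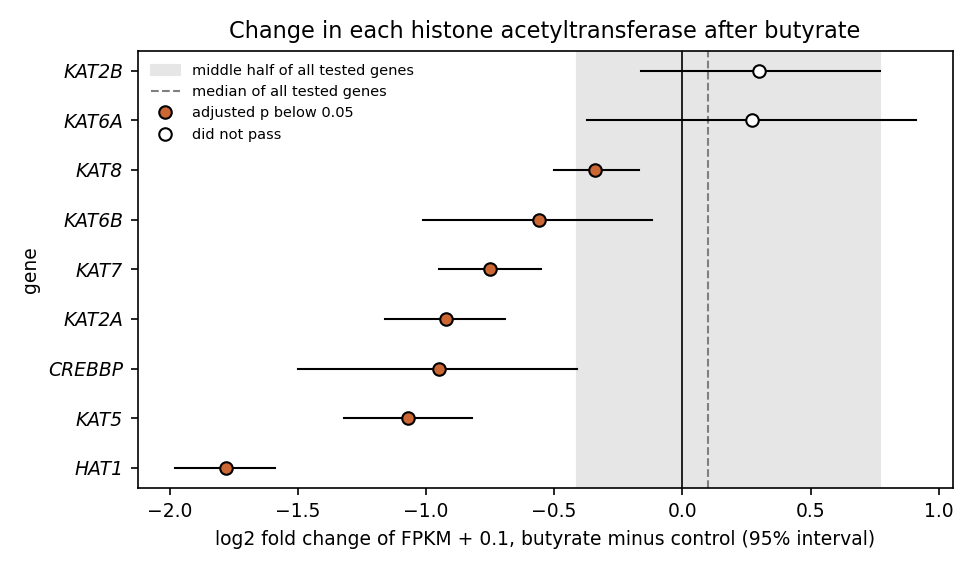
Log2 fold change of FPKM + 0.1 for each gene with its 95% interval from limma, filled where the adjusted p is below 0.05. The shaded band runs between the quartiles of all tested genes, -0.41 and 0.77, and the dashed line is their median of 0.10. HAT1 stands farthest to the left at -1.78, and the intervals of KAT2B and KAT6A include 0.

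The order of the levels also differed between the groups. In control, HAT1 was highest with a mean FPKM of 37.9, followed by KAT8 with 23.7, KAT5 with 18.5, KAT7 with 18.2 and KAT2A with 13.6. A gap separated these from KAT6B with 1.65, KAT2B with 1.12, CREBBP with 1.08 and KAT6A with 0.427. The ranges of KAT5 and KAT7 overlapped, as did those of KAT2B and CREBBP, and all other neighbours in this order were apart. After butyrate KAT8 was highest with 18.8, followed by HAT1 with 10.9, KAT7 with 10.8, KAT5 with 8.81, KAT2A with 7.11, KAT2B with 1.40, KAT6B with 1.08, KAT6A with 0.532 and CREBBP with 0.508. Here HAT1 and KAT7 overlapped, and so did KAT6A and CREBBP. The same 4 genes were low in both groups, and their loci span 73.1 to 182 kb, while those of the 5 abundant genes span 6.91 to 40.0 kb.

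The summed FPKM of the 9 genes was 116, 118 and 116 in control and 60.4, 58.7 and 61.0 after butyrate, a mean that was 48.4% lower. Without HAT1 the sum was 78.4 ± 3.16 (SD, n = 3) and 49.1 ± 0.433 (SD, n = 3), or 37.4% lower. The FPKM of all genes also summed to less after butyrate, 619401 to 629037 against 678035 to 681912 in control. A factor applied to all genes of a culture cancels in shares of the summed FPKM of the 9 genes. HAT1 made up 35.2%, 32.2% and 30.2% of it in the control cultures and 18.6%, 17.1% and 18.9% in the butyrate cultures. The share of KAT8 was 20.4% ± 0.495 (SD, n = 3) in control and 31.3% ± 2.13 (SD, n = 3) after butyrate, so that the gene with the smallest fall held the largest share after butyrate. The share of KAT2A, 11.7% ± 1.19 and 11.8% ± 0.471 (SD, n = 3 each), differed by less than the spread between cultures.

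**Figure D3:**
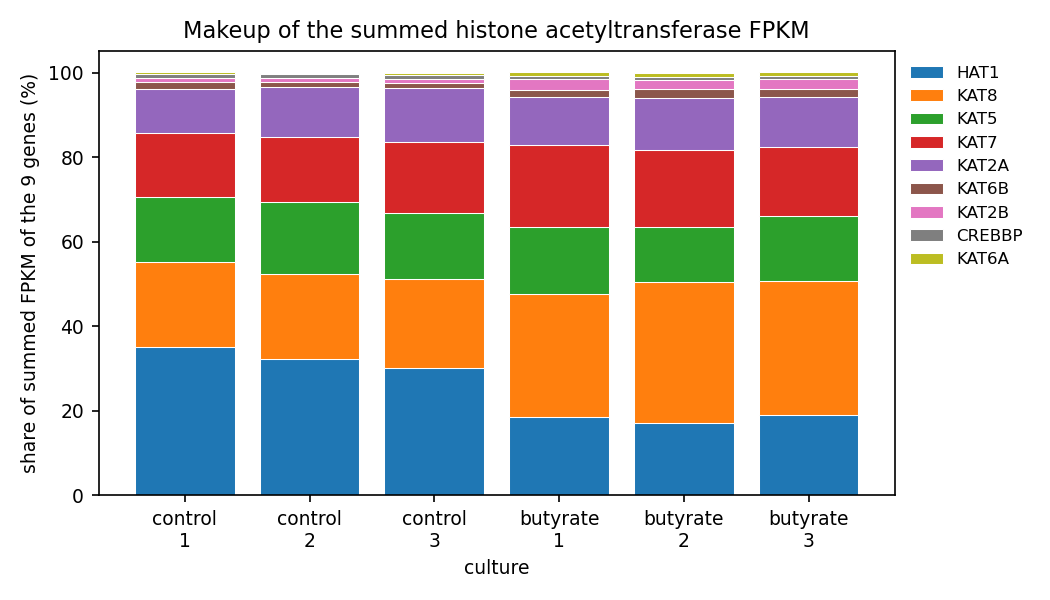
Share of each gene in the summed FPKM of the 9 acetyltransferases, with 1 stacked bar per culture from 0 to 100%. The lowest segment, HAT1, takes 30.2% to 35.2% in the control cultures and 17.1% to 18.9% in the butyrate cultures, and the segment of KAT8 above it is wider after butyrate.

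The balance of paralogues was compared within each culture. The FPKM of KAT2A was 12.3 ± 2.24 times that of KAT2B in control and 5.09 ± 0.503 times after butyrate (SD, n = 3 each). On the log2 scale with the pseudocount, the ratio was 3.26, 3.46 and 3.75 in control and 2.16, 2.41 and 2.22 after butyrate. The difference was -1.23 with a standard error of 0.162, and the groups did not overlap (two-sided exact permutation test over cultures, p = 0.1, which is the minimum for 3 against 3). In the other pair, the FPKM of KAT6B was 3.92 ± 0.634 times that of KAT6A in control and 2.03 ± 0.115 times after butyrate (SD, n = 3 each). The log2 ratio of KAT6A to KAT6B was -1.83, -1.87 and -1.50 in control and -0.83, -0.90 and -0.97 after butyrate. It differed by 0.83 with a standard error of 0.125, again without overlap (exact permutation test, two-sided, p = 0.1). In both pairs the excess of the more abundant paralogue was smaller in each butyrate culture than in any control culture. The single genes fixed this outcome in advance. All butyrate values of KAT2A and KAT6B lay below the control values, and all those of KAT2B and KAT6A lay above them. The lack of overlap and the p of 0.1 from the permutation test therefore restate the single-gene values, and the rises of KAT2B and KAT6A did not pass. The sizes depended on the processing, since with quantile normalization the differences were -0.79 and 0.56, and with a pseudocount of 1 they were -1.03 and 0.45. With 3 cultures a group, this permutation test cannot give a p below 0.1.

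**Figure D4:**
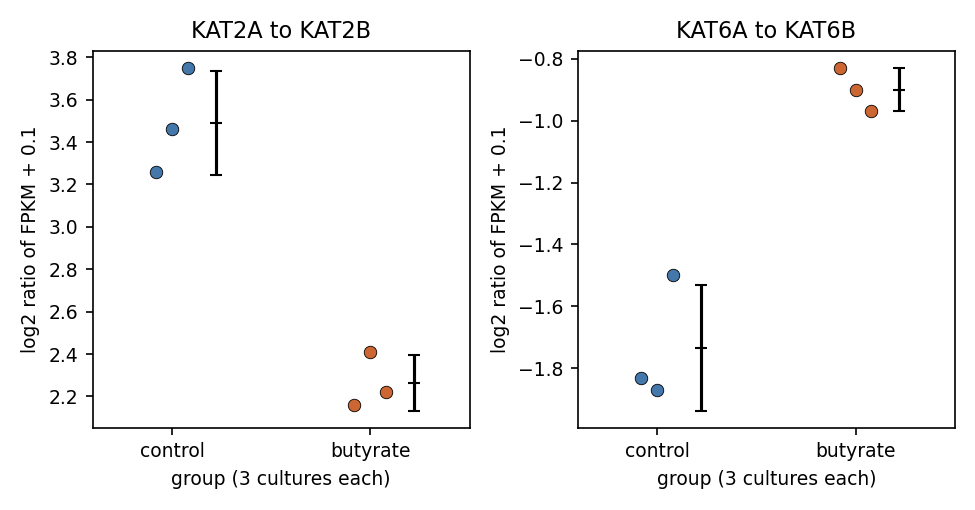
Log2 ratio of FPKM + 0.1 between paralogues, with 1 point per culture and the mean with its SD beside the points. The ratio of KAT2A to KAT2B lies between 3.26 and 3.75 in control and between 2.16 and 2.41 after butyrate, and that of KAT6A to KAT6B lies between -1.87 and -1.50 and between -0.97 and -0.83.

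The partners of these enzymes were taken from lists of complex subunits and related genes. Of 91 partner genes, all of them tested, 45 fell, 10 rose and 36 did not pass, with a median log2 fold change of -0.36. The shares among all tested genes, 25.9% falling and 32.5% rising, and their median of 0.10 stand beside this and beside each list below. Of the 91 genes, 2 passed the DEG thresholds, both of them histone chaperones. Some subunits belong to several complexes and are counted in each list.

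Around HAT1, 7 of 8 partner and chaperone genes of new histones H3 and H4 fell and none rose, with a median log2 fold change of -1.39. ASF1B, a chaperone that hands H3-H4 on for deposition, had FPKM of 22.3, 24.9 and 22.8 in control and 1.57, 1.61 and 2.46 after butyrate. ASF1B had a log2 fold change of -3.59 (limma, adjusted p = 5.9e-07). CHAF1A, the large subunit of the replication-coupled assembly factor CAF-1, had 12.3, 12.7 and 10.8 in control and 1.08, 1.56 and 0.601 after butyrate, with a log2 fold change of -3.43 (limma, adjusted p = 1.3e-05). The histone chaperone NASP changed by -1.64 (limma, adjusted p = 4.4e-06). RBBP7, the subunit that binds HAT1 itself, was singled out after its values were seen. Its FPKM was 401, 378 and 399 in control and 171, 169 and 183 after butyrate, a log2 fold change of -1.17 (limma, adjusted p = 2.0e-07). ASF1B and CHAF1A therefore had larger changes than HAT1, and NASP and RBBP7 smaller ones. In the rest of the list, IPO4 and CHAF1B changed by -1.61 and -1.01. RBBP4 changed by only -0.19 (limma, adjusted p = 0.022), and ASF1A, at 0.02, did not pass (limma, adjusted p = 0.83). The fall of RBBP4 was small, and its value after rescaling to equal sums is not given here.

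The partners of KAT5 in the TIP60 complex fell in 12 of 17 cases and rose in none, with a median of -0.63. ING3, a subunit that reads methylated histone H3, had a log2 fold change of -1.43 (limma, adjusted p = 0.0035), and the scaffold subunit EPC1 one of -1.07 (limma, adjusted p = 0.019). EPC1 was close to its threshold, and the call was lost without control replicate 2 or 3 or butyrate replicate 2 or 3, where the adjusted p from limma was 0.068 to 0.081. RUVBL2, an ATPase shared with other chromatin complexes, was far more abundant, with FPKM of 71.9, 76.8 and 75.3 in control and 32.7, 38.5 and 36.8 after butyrate. Its log2 fold change of -1.05 (limma, adjusted p = 3.8e-06) was near that of KAT5.

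For KAT2A and KAT2B, 8 of 24 SAGA and ATAC partners fell, 1 rose and 15 did not pass, with a median of -0.10. Among all tested genes 25.9% fell and 32.5% rose. SGF29, which reads methylated histone H3, fell most, with FPKM of 5.42, 5.43 and 6.90 in control and 1.80, 0.905 and 1.42 after butyrate and a log2 fold change of -2.07 (limma, adjusted p = 1.2e-04). TAF9B and ENY2, the latter a subunit of the deubiquitinating module, changed by -0.95 and -0.77 (limma, adjusted p = 0.0049 and 9.3e-05). DR1, a subunit of ATAC that also binds the TATA-binding protein, was the gene that rose, by 0.34 (limma, adjusted p = 0.022). That call was lost after a shift to equal medians (limma, adjusted p = 0.068) and without control replicate 2 or 3 or butyrate replicate 1 or 2 (limma, adjusted p = 0.067 to 0.079).

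Of 9 partners of KAT6A, KAT6B and KAT7, 3 fell and 1 rose, with a median of -0.53, against 25.9% falling and 32.5% rising among all tested genes. MEAF6, which is also a TIP60 subunit, changed by -0.96 (limma, adjusted p = 5.2e-05). ING5 changed by -1.79 (limma, adjusted p = 0.011), but its control values of 5.99, 6.71 and 2.09 were spread widely, and the lowest lay only just above the highest butyrate value of 1.99. The change of ING5 no longer passed without control replicate 1 or 2 or butyrate replicate 2 or 3 (limma, adjusted p = 0.054 to 0.072). BRPF1, the scaffold of the KAT6A and KAT6B complexes, changed by -0.53 (limma, adjusted p = 0.021) and no longer passed after rescaling (limma, adjusted p = 0.055) or without control replicate 2 or butyrate replicate 1 or 3 (limma, adjusted p = 0.065 to 0.074). JADE3, a scaffold of the KAT7 complex, rose from FPKM of 5.71, 5.22 and 5.08 to 9.92, 9.86 and 9.99, a log2 fold change of 0.88 (limma, adjusted p = 8.2e-05).

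Of 11 MSL and NSL partners of KAT8, 6 fell and 1 rose, with a median of -0.49. HCFC1, a transcriptional coregulator, had FPKM of 4.37, 4.92 and 5.32 in control and 1.71, 1.22 and 0.939 after butyrate. Its log2 fold change was -1.87 (limma, adjusted p = 1.2e-04). MCRS1 and KANSL2 of the NSL complex changed by -1.73 and -0.80 (limma, adjusted p = 6.1e-07 and 8.9e-05), and PHF20 of the same complex rose by 0.42 (limma, adjusted p = 0.0087). MCRS1 and HCFC1 thus had larger changes than KAT8 itself.

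Of the 6 small proteins that bind CREBBP and EP300, 4 rose and none fell, with a median of 0.70. CITED2, which competes with other transcription factors for these coactivators, had FPKM of 64.0, 59.6 and 60.3 in control and 177, 208 and 180 after butyrate. Its log2 fold change was 1.61 (limma, adjusted p = 3.3e-07). CITED4 and EID2, the latter an inhibitor of differentiation that binds EP300, both changed by 0.71 (limma, adjusted p = 2.4e-05 and 3.4e-04). In the butyrate cultures these 3 genes were higher and CREBBP lower than in control.

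Of 9 other genes whose products have been described as histone acetyltransferases, 5 fell and 1 rose, with a median of -0.46. ELP3, the catalytic subunit of Elongator, changed by -0.69 (limma, adjusted p = 8.7e-04), and the nuclear receptor coactivator NCOA3 by 0.60 (limma, adjusted p = 0.0063). The circadian factor CLOCK and the TFIID subunit TAF1 changed by -0.62 and -0.51 (limma, adjusted p = 0.046 and 0.026). The call of CLOCK was lost after rescaling, with a pseudocount of 0.01, without the filter, without the trend and without any single culture except butyrate replicate 3 (limma, adjusted p = 0.051 to 0.13). That of TAF1 was lost after rescaling and without control replicate 1 or 3 or butyrate replicate 3 (limma, adjusted p = 0.068 to 0.077).

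**Figure D5:**
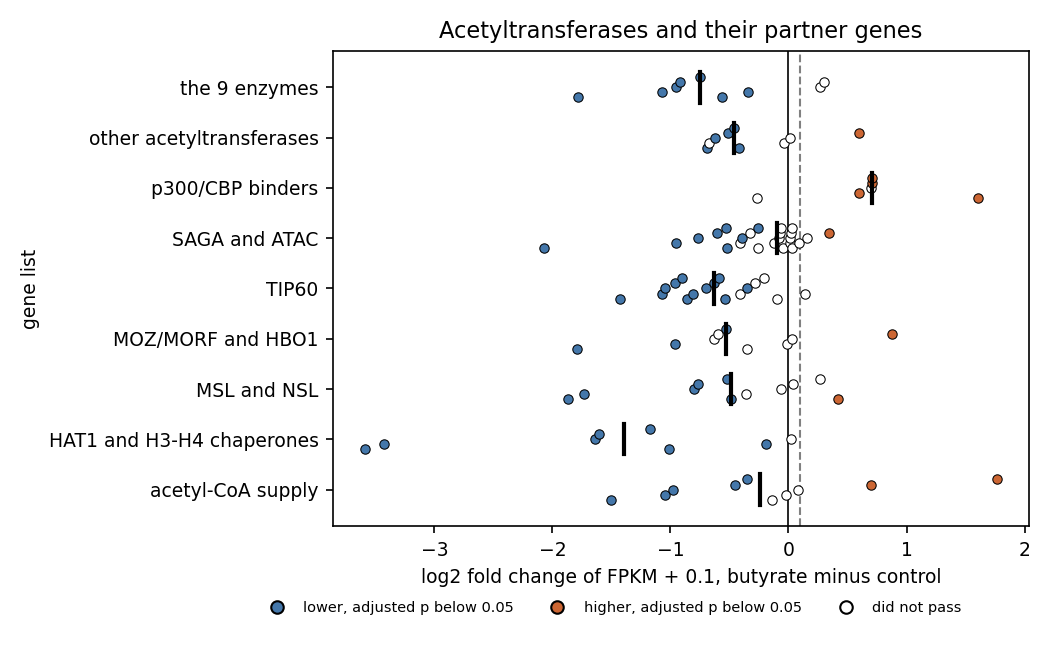
Log2 fold change of FPKM + 0.1 for the 9 acetyltransferases and for each list of partner genes, with 1 point per gene, coloured where the adjusted p from limma is below 0.05, a thick bar at the median of each list and a dashed line at the median of all tested genes. The list of HAT1 partners and chaperones has the lowest median, -1.39, and the list of p300/CBP binders the highest, 0.70.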

How the data were processed

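Per the labels and the study's methods, the authors trimmed the reads with Trim Galore 0.4.1, aligned them with STAR, kept uniquely mapped reads and estimated FPKM per gene with Cufflinks, on UMD3.1. The deposited FPKM carry confidence bounds. Whether the counting used strand is not given in the sources used here.

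Rows were joined by identifier, name and position. TNC and FOSL2 were dropped because Cufflinks marked an estimate as failed. Starts were raised by 1, since 790 microRNA genes had their RefSeq length only with 0-based starts. Chromosome numbers are those of the majority of genes on a sequence, by symbol, in RefSeq's ARS-UCD2.0 table. Values of log2(FPKM + 0.1) were tested by limma 3.58.1 (R 4.3.3) with its mean-variance trend, adjusted over 15813 genes and tested on simulated data; implied fragments are (2 × FPKM / upper half-width of the bounds) squared. No count model was applied to FPKM.

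The genes named are the acetyltransferases and, in each list, up to 3 genes called in each direction with the largest change and no overlap between groups. For the HAT1 list the remaining genes are named as well. Members and lists were chosen with earlier results of these data known. CSRP2BP was taken as KAT14. Same-numbered cultures deviated from their group means with correlations of 0.023, -0.0043 and 0.0018, so the numbers were not taken as pairs. Alternatives were other pseudocounts, filters and scalings, no trend, a replicate block, other thresholds and each culture left out. Promoter and protein sequences were not used here, and the ratio of EP300 to CREBBP was not computed.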

Additional observations from a re-analysis of the deposited data

How the results depend on the processing

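Across 9 alternatives with all cultures and 6 that each left out 1 culture, HAT1, KAT5, CREBBP, KAT2A, KAT7 and KAT8 stayed lower with an adjusted p from limma below 0.05 wherever they were tested (a minimum mean FPKM of 1 removed CREBBP and KAT6A). The change of CREBBP ranged from -1.58 to -0.46, that of KAT6B was -1.02 with quantile normalization and -0.35 with a pseudocount of 1, and that of KAT8 was -0.21 after rescaling to equal sums. KAT2B became -0.17 and KAT6A -0.46 with quantile normalization, and 1 gene, KAT2B, was called higher without the trend (limma, adjusted p = 0.045). Bonferroni adjustment left 1 of the 7 falls, HAT1, against 6.97% of all tested genes lower and 5.79% higher. Bonferroni adjustment together with a log2 fold change beyond 1 also left HAT1 only. The share of all tested genes at these joint thresholds was not computed. The log2 ratio of KAT2A to KAT2B moved from -1.23 to -1.03 with a pseudocount of 1 and -0.79 with quantile normalization, and that of KAT6A to KAT6B from 0.83 to 0.45 and 0.56. The cause was not tested. The median of all tested genes moved from 0.10 to 0.22 after rescaling to equal sums and to -0.05 with quantile normalization. With the replicate block, 6 genes were lower, KAT6B no longer passing (limma, adjusted p = 0.072). With this block 42 partner genes fell and 10 rose, against 25.4% and 31.3% of all tested genes. CLOCK was lost as well (limma, adjusted p = 0.077). After rescaling to equal sums 39 partner genes fell and 12 rose, against 21.4% and 37.4% of all tested genes. Quantile normalization gave 52 and 11, against 29.6% and 27.1%. A shift to equal medians gave 53 and 9, against 30.3% and 28.3%. Of 31 partner genes, those named for the largest changes and RBBP7, 25 kept their call in each alternative run for them. The values of CREBBP, KAT2B and KAT6A rest on at most 66 implied fragments in any culture.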

Other observations

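The enzymes also depend on acetyl-CoA, and of 10 genes listed around its supply, 5 fell, 2 rose and 3 did not pass. Most of these make acetyl-CoA or take part in moving it between compartments. CS, which was among those that fell, encodes citrate synthase, which uses acetyl-CoA. Among all tested genes 25.9% fell and 32.5% rose. The median log2 fold change of the 10 genes was -0.24, against 0.10 for all tested genes. The genes that fell include subunits of the pyruvate dehydrogenase complex, which makes acetyl-CoA in mitochondria. PDHB had FPKM of 97.0, 89.4 and 94.1 in control and 29.1, 33.7 and 36.8 after butyrate, with a log2 fold change of -1.50 (limma, adjusted p = 1.5e-06), and DLAT changed by -1.05 (limma, adjusted p = 7.1e-06). CRAT, which exchanges acetyl groups between CoA and carnitine, changed by -0.98 (limma, adjusted p = 9.0e-06).

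The genes that rose both encode synthetases that make acetyl-CoA from acetate. ACSS2, the enzyme of the cytosol and nucleus, had FPKM of 11.5, 12.6 and 11.8 in control and 19.8, 19.3 and 19.1 after butyrate, a log2 fold change of 0.70 (limma, adjusted p = 6.3e-05). The mitochondrial ACSS1 was low in control, with 0.349, 0.316 and 0.728, and had 1.95, 1.32 and 2.02 after butyrate, a log2 fold change of 1.77 (limma, adjusted p = 0.0018).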
